A study of Homo sapiens with 4 samples.

Results

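The C/EBP, GFI1 and IRF8 myeloid regulators are transcription factors that steer blood progenitors towards granulocytes, monocytes, erythroid cells or platelets. They were taken by gene symbol from the expression table, as CEBPA, CEBPB, CEBPD, CEBPE, CEBPG, GFI1, GFI1B, IRF8, IKZF1 and RUNX3. Of these 10 symbols, 9 had a row among the 32673 genes of the table. IRF8 was not analysed here. Their mRNA was compared between imatinib-sensitive TF1-BA cells and imatinib-resistant TF1-BAR cells, with 2 libraries per cell line.

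C/EBP proteins are leucine zipper factors that bind DNA as dimers. C/EBPα directs entry into the granulocyte lineage, C/EBPε acts later in granule formation, C/EBPβ and C/EBPδ respond to cytokines and inflammation, and C/EBPγ lacks an activation domain and works as a dimer partner. GFI1 and GFI1B are closely related zinc finger repressors that recruit the LSD1 and CoREST co-repressors. GFI1 acts in stem cells and granulocytes, and GFI1B in erythroid cells and megakaryocytes. IKZF1 encodes Ikaros, a zinc finger regulator of lymphoid and myeloid development, and RUNX3 belongs to the RUNX family, whose members bind DNA together with CBFβ. In blast crisis of chronic myeloid leukaemia, the BCR-ABL kinase is known to lower the C/EBPα protein.

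TF1 is a human erythroleukaemia cell line that needs a cytokine for growth. A retrovirus brought the BCR-ABL oncogene into TF1-BA cells. The TF1-BAR population grew out of them under continuous imatinib. Both lines therefore share BCR-ABL expressed from a virus, and both were grown with GM-CSF (2 ng/ml in the labels, and a higher concentration in the methods of the study). Resistant cells were cultured with imatinib at 2 μM according to the labels, and whether the drug was present at harvest was not given in the sources used here, so that drug exposure and resistance cannot be told apart. The resistant libraries are titled as vector libraries in the labels and are named TF1-BAR there. Whether these cells carried a control vector is not given in the sources used here, and if they did, its effect and resistance cannot be told apart in any comparison. Nothing states that the 2 libraries of a line came from separately kept cultures, so the p-values measure the spread between these libraries, which may be technical.

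The values are FPKM, fragments scaled to the length of the gene and to the size of the library. Levels can be compared between genes only as far as the length used for each gene holds. Each value was a whole number of fragments over a length and a library size, and the library sizes were 15465497 to 18042299 fragments. The lines were compared by limma on log2(FPKM + 0.5) with Benjamini-Hochberg adjustment. This took in 15519 genes whose mean reached 0.5 FPKM. The added 0.5 makes the log2 fold change of a weakly expressed gene smaller than its ratio. Differential expression required both a log2 fold change of 1 or more in either direction and an adjusted p under 0.05. The median log2 fold change of all genes tested was 0.066. All 12 erythroid and myeloid markers of TF1 cells, among them GATA1, TFRC and CD33, were expressed, with a summed level of 383 to 391 FPKM in the TF1-BA and 469 to 480 FPKM in the TF1-BAR libraries. The 7 lymphoid markers summed to 22.5 to 33.1 FPKM, mostly CD3D and NKG7, and CD3E had at most 1 fragment. The 8 stromal, epithelial and endothelial markers summed to 33.5 to 42.4 FPKM, mostly PECAM1 and KRT8, with KRT19 and COL1A2 at 0 or 1 fragment. CD34 and KIT were higher and CD3D was lower in the TF1-BAR cells by both thresholds. CDH5, an endothelial gene, was also higher by both, and the part of these shifts in the results was not tested. RNA was taken from whole cultures, so that fewer expressing cells and less RNA per cell cannot be told apart.

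Of the regulators, GFI1 rose and CEBPD fell in the resistant cells, and no other member passed an adjusted p of 0.05. GFI1 mRNA was 2.03 times as high in the TF1-BAR as in the TF1-BA cells, and CEBPD mRNA was 0.456 times as high. These were 2 of the 8 members that could be tested, while 26.9% of all genes tested passed the same limit, so the share of the members was close to the background. By direction, 1 member was higher against 16.3% of all genes and 1 was lower against 10.5%, and of all genes 3.05% were higher and 1.69% lower by both thresholds. By limma, 0 of 8 members passed both thresholds, against 4.75% of all genes, while 3 had an unadjusted p under 0.05 and limma voom on the recovered fragments called 2, against 1517 of 15786 genes. Leaving out TF1-BAR replicate 1 or TF1-BAR replicate 2 also brought 1 member past both thresholds. Without TF1-BA replicate 1 or TF1-BA replicate 2, 0 members had an adjusted p under 0.05, and 3 had one without TF1-BAR replicate 1. Of all genes, 3.40%, 3.31% and 21.9% had one in these fits. The median log2 fold change of the 8 tested members was 0.12. The libraries of the lines did not overlap for 5 of the 8, and for 69.3% of all genes.

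**Figure D1:**
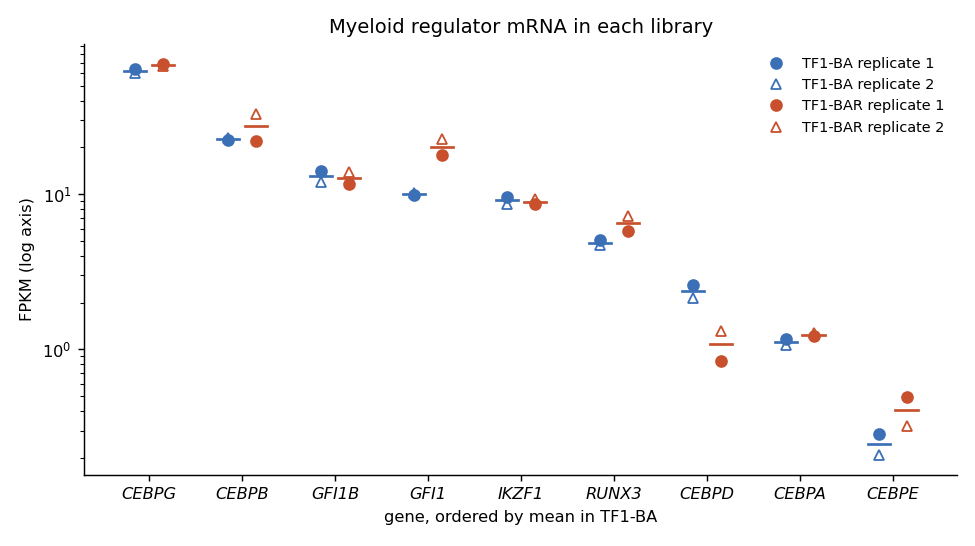
FPKM of the 9 regulators in each of the 4 libraries on a log axis, with a short line at the mean of each cell line. CEBPG is highest in every library and CEBPE lowest, GFI1 lies above 17 FPKM in both TF1-BAR libraries against about 10 FPKM in both TF1-BA libraries, and CEBPD is lower in both TF1-BAR libraries.

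The promoters of GFI1 are shown because it rose and because GFI1 proteins are known to bind promoters of their own genes. GFI1 (ENSG00000162676) lies on the minus strand of chromosome 1 of GRCh38, from 92474762 to 92486876 in the expression table. RefSeq (GRCh38.p14) gives several transcription starts. The first line below holds the 250 bases before the outermost start, chr1:92486926-92487175, with the GFI1 core motif AATC in capitals. The second holds the 250 bases before an inner start, chr1:92486100-92486349, which lie in the first intron of the longer transcript, with the C/EBP palindrome TTGCGCAA in capitals. Both are written 5′ to 3′ on the strand of the gene.
GFI1 outer start: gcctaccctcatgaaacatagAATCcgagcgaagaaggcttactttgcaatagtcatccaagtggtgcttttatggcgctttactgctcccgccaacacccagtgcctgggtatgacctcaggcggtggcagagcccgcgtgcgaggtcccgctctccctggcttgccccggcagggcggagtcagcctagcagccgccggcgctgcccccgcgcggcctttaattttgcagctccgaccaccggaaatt
GFI1 inner start: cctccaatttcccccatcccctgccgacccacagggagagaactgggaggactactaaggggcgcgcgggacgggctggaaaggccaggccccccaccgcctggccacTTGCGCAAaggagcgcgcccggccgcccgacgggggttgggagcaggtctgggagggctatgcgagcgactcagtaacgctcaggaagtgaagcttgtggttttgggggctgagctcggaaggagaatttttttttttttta
Both strands were searched. AATC occurred 1 time in the outer window, at base 22, and in 64.8% of the 35116 RefSeq promoter windows of the same length. The palindrome TTGCGCAA occurred 1 time in the inner window, at base 109, and in 0.131% of all windows. It was found in no other of the 16 windows of the 8 members that had a RefSeq promoter entry and a row in the table. The remaining window of GFI1 held 1 AATC. The windows of its relative GFI1B held 2 and 4 AATC, and each of them also held 1 AAATCA, a longer form that contains AATC and is found in 11.6% of all windows. These motifs were not particular to the GFI1 genes, as 1 window of IKZF1 also held AAATCA and AATC was found in windows of IKZF1, CEBPB, CEBPG and RUNX3. The CCAAT box was present in 1 window each of CEBPB, CEBPG, GFI1 and GFI1B, in both windows of RUNX3, and in 32% of all windows. The motif AGATAA, bound by GATA factors, was found 2 times in 1 window of IKZF1, in 0 windows of the other members and in 9.17% of all windows. These matches are letters in a window, and the data hold no measurement of binding.

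The C/EBP members with an activation domain were expressed at very different levels. CEBPB (ENSG00000172216, chromosome 20, 50190734 to 50192689) was the strongest of them, with 22.2 and 23.1 FPKM in the TF1-BA libraries and 22.0 and 32.7 FPKM in the TF1-BAR libraries. TF1-BAR replicate 2 stood above the other 3 libraries, which lay close together, and the lines overlapped. Limma put the log2 fold change of CEBPB at 0.24 (standard error 0.189, 95% interval −0.25 to 0.73, adjusted p = 0.383 from limma). It rested on that library, since leaving out TF1-BAR replicate 2 made it −0.040 and leaving out TF1-BAR replicate 1 made it 0.52 (adjusted p = 0.0285). Chromosome 20 itself was shifted upwards, by a median of 0.39 on the log2 scale over 440 tested genes, and the part of this shift in the CEBPB value was not tested. The antisense gene CEBPB-AS1 shares 765 bases with CEBPB and had 9 to 15 fragments per library, against 678 to 1027 for CEBPB. The library kit as named does not mark strand, so their reads cannot be told apart where they overlap.

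CEBPD was low and fell further. CEBPD (ENSG00000221869, chromosome 8, 47736909 to 47739086) had 2.60 and 2.14 FPKM in the TF1-BA libraries, from 102 and 72 fragments. In the TF1-BAR libraries it had 0.845 and 1.31 FPKM, from 29 and 46 fragments. Both resistant libraries lay below both sensitive ones. The mean was 2.37 ± 0.324 FPKM (SD, n = 2) in the TF1-BA and 1.08 ± 0.332 FPKM (SD, n = 2) in the TF1-BAR cells. For CEBPD, limma gave a log2 fold change of −0.87 (standard error 0.193, 95% interval −1.37 to −0.38, adjusted p = 0.0322 from limma). The call depended on single libraries, as the adjusted p of CEBPD from limma was 0.156 without TF1-BA replicate 1, 0.101 without TF1-BA replicate 2 and 0.0706 without TF1-BAR replicate 1, with log2 fold changes from −0.99 to −0.66. With the replicate number as a block it was 0.0514. The neighbouring gene SPIDR, whose end lies less than 1 kb from CEBPD in the table, had a log2 fold change of 0.19 (adjusted p = 0.179), and 0 of the 4 genes tested within 500 kb of CEBPD passed an adjusted p of 0.05.

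CEBPA, the granulocyte factor, was expressed weakly in both lines. CEBPA (ENSG00000245848, chromosome 19, 33299934 to 33302564) had 1.16 and 1.06 FPKM in the TF1-BA and 1.21 and 1.28 FPKM in the TF1-BAR libraries, from 43 to 55 fragments. The resistant libraries were just above the sensitive ones. Limma put the log2 fold change of CEBPA at 0.12 (standard error 0.136, 95% interval −0.24 to 0.47, adjusted p = 0.559 from limma), and it was −0.017 after quantile normalization. CEBPA-AS1, which lies beside CEBPA on the other strand and shares 0 bases with it, had 0.933 and 0.647 FPKM in the TF1-BA and 1.18 and 1.27 FPKM in the TF1-BAR libraries, with a log2 fold change of 0.43 (adjusted p = 0.134).

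CEBPE, which acts late in granulocytes, was near the limit of detection. CEBPE (ENSG00000092067, chromosome 14, 23117304 to 23119616) had 8 and 5 fragments in the TF1-BA and 12 and 8 in the TF1-BAR libraries, or 0.208 to 0.490 FPKM. It did not reach the filter, and a difference was not detectable at this depth. With no filter, CEBPE had a log2 fold change of 0.27 and an adjusted p of 0.410 from limma.

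CEBPG, the C/EBP protein without an activation domain, was by far the most abundant member in both lines. CEBPG (ENSG00000153879, chromosome 19, 33373330 to 33382686) had 63.9 and 60.6 FPKM in the TF1-BA and 69.3 and 66.9 FPKM in the TF1-BAR libraries, from 4135 to 5082 fragments. Its level was above that of 96.6% of the genes tested. The lines did not overlap, but the difference was small, with a log2 fold change of 0.13 for CEBPG (standard error 0.0613, 95% interval −0.03 to 0.29, adjusted p = 0.178 from limma). CEBPA and CEBPG lie near each other, with starts 70.8 kb apart, and of the 10 genes tested within 500 kb of CEBPG only KCTD15, at 0.88 (adjusted p = 0.00566), and PEPD, at −0.38 (adjusted p = 0.0254), passed the adjusted p.

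Among the 5 C/EBP members, CEBPG and CEBPB made up most of the summed FPKM in both lines. CEBPZ and DDIT3 were not counted among them. CEBPZ had 25.8 to 28.2 FPKM. DDIT3 had 41.6 and 45.9 FPKM in the TF1-BA and 10.9 and 9.93 FPKM in the TF1-BAR libraries. The 5 members together had 90.1 and 87.1 FPKM in the TF1-BA libraries and 93.8 and 102 FPKM in the TF1-BAR libraries. CEBPG made up 65.3% to 73.8% of this sum and CEBPB 23.4% to 31.9%, and for both genes the lines overlapped. CEBPA made up 1.21% to 1.29%. The share of CEBPD was 2.88% and 2.45% in the sensitive and 0.901% and 1.28% in the resistant libraries, so it was lower in both. CEBPA had 0.446 and 0.494 times the FPKM of CEBPD in the TF1-BA libraries and 1.43 and 0.972 times in the TF1-BAR libraries. With 2 libraries per line, an exact two-sided permutation test of such a ratio cannot give a p below 0.333.

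**Figure D2:**
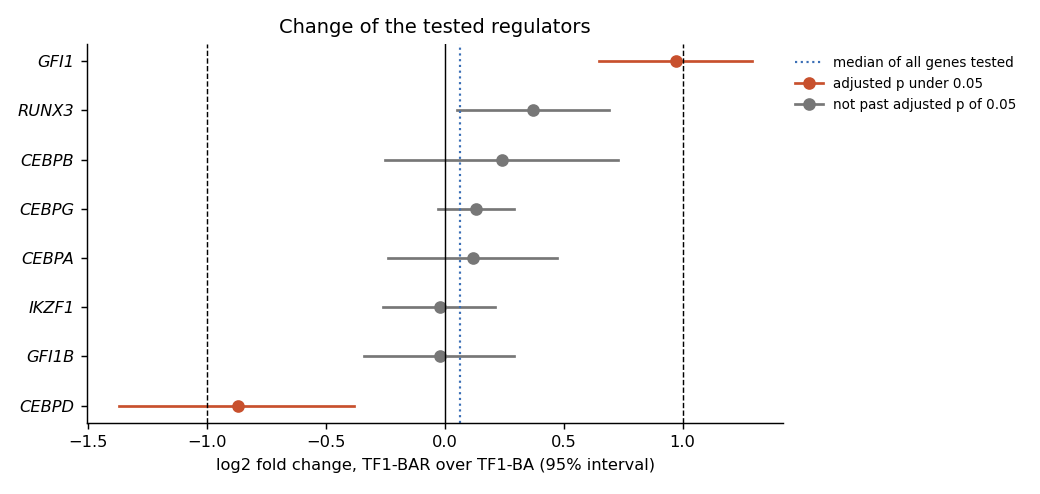
Log2 fold change of the 8 tested regulators in TF1-BAR over TF1-BA cells, with 95% intervals from limma, dashed lines at a log2 fold change of 1 in each direction and a dotted line at the median of all genes tested, 0.066. The intervals of GFI1, CEBPD and RUNX3 do not include 0, and GFI1 and CEBPD have an adjusted p under 0.05.

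GFI1 was the only member that rose with an adjusted p under 0.05. It had 9.84 and 10.1 FPKM in the TF1-BA libraries, from 586 and 516 fragments. In the TF1-BAR libraries it had 17.8 and 22.6 FPKM, from 927 and 1198 fragments. Both resistant libraries were clearly above both sensitive ones, which were almost equal, and TF1-BAR replicate 2 was the highest. The mean was 9.97 ± 0.190 FPKM (SD, n = 2) in the TF1-BA and 20.2 ± 3.37 FPKM (SD, n = 2) in the TF1-BAR cells. For GFI1, limma gave a log2 fold change of 0.97 (standard error 0.125, 95% interval 0.65 to 1.29, adjusted p = 0.0102 from limma), just short of the fold change threshold. Leaving out TF1-BAR replicate 2 made it 0.81, and leaving out TF1-BAR replicate 1 made it 1.14. Without TF1-BA replicate 1 or TF1-BA replicate 2 the adjusted p of GFI1 from limma was 0.0654 and 0.0626, with log2 fold changes of 0.95 and 0.99. No row of the table overlaps GFI1 or lies within 2 kb of it. Of the 6 genes tested within 500 kb, RPAP2 and RPL5 were higher, by 0.52 (adjusted p = 0.0257) and 0.32 (adjusted p = 0.0148) on the log2 scale.

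GFI1B, the erythroid relative, did not differ beyond the spread of the libraries. GFI1B (ENSG00000165702, chromosome 9, 132944000 to 132991687) had 14.0 and 11.9 FPKM in the TF1-BA and 11.7 and 13.8 FPKM in the TF1-BAR libraries. The ranges of the lines overlapped. The log2 fold change of GFI1B was −0.02 (standard error 0.123, 95% interval −0.34 to 0.29, adjusted p = 0.899 from limma), and it changed sign with small values under other settings. At its outer end GFI1B overlaps TSC1 on the other strand by 634 bases, and TSC1 had 304 to 433 fragments against 1120 to 1547 for GFI1B.

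The order of the GFI1 genes by FPKM was therefore different in the cell lines. GFI1 had 0.700 and 0.852 times the FPKM of GFI1B in the TF1-BA libraries, and 1.53 and 1.64 times in the TF1-BAR libraries. By FPKM, GFI1B was the higher of the pair in both sensitive libraries, and GFI1 in both resistant libraries. This order depends on the lengths used, 3301 bases for GFI1 and 6104 bases for GFI1B. In fragments, GFI1B was above GFI1 in every library, also in the TF1-BAR libraries (1124 and 1352 against 927 and 1198). The FPKM of the pair summed to 23.9 and 22.0 in the TF1-BA and 29.5 and 36.4 in the TF1-BAR libraries. For this ratio too the smallest exact permutation p is 0.333.

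**Figure D3:**
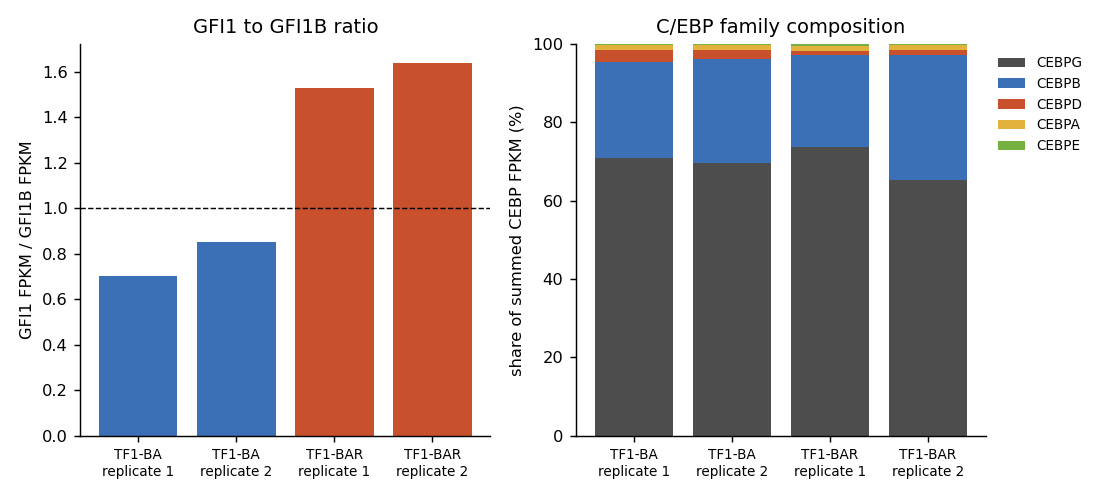
Left, GFI1 FPKM divided by GFI1B FPKM in each library, with a dashed line at equal levels. Right, the share of each C/EBP member in the summed FPKM of these 5 genes in each library, without CEBPZ and DDIT3. The ratio is under 1 in both TF1-BA libraries and over 1.5 in both TF1-BAR libraries, and CEBPG and CEBPB make up most of the summed FPKM of the 5 genes in every library.

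Neither IKZF1 nor RUNX3 passed the adjusted p. IKZF1 (ENSG00000185811, chromosome 7, 50304124 to 50405101) had 9.60 and 8.60 FPKM in the TF1-BA and 8.59 and 9.30 FPKM in the TF1-BAR libraries, with overlapping lines. Limma put the log2 fold change of IKZF1 at −0.02 (standard error 0.0915, 95% interval −0.26 to 0.21, adjusted p = 0.871 from limma). RUNX3 (ENSG00000020633, chromosome 1, 24899511 to 24965121) had 5.04 and 4.70 FPKM in the TF1-BA and 5.75 and 7.19 FPKM in the TF1-BAR libraries. Both resistant libraries were above the sensitive ones, and TF1-BAR replicate 2 was the highest. The log2 fold change of RUNX3 was 0.37 (standard error 0.125, 95% interval 0.05 to 0.69), with an adjusted p of 0.0877 from limma. That adjusted p was 0.0427 without TF1-BAR replicate 1 and 0.0203 with limma voom on the recovered fragments. The antisense gene AL445471.1 lies inside RUNX3 and had 5, 6, 5 and 17 fragments, the highest number in the same library as RUNX3.

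In the order of FPKM, CEBPG led in both lines and CEBPE was last. Between them came CEBPB, the GFI1 genes, IKZF1, RUNX3 and the pair CEBPA and CEBPD. In the TF1-BA cells GFI1B came above GFI1, and no neighbours in the order overlapped between libraries. In the TF1-BAR cells GFI1 came above GFI1B, and CEBPA stood above CEBPD. There the ranges of CEBPB and GFI1 overlapped, although CEBPB was the higher of them within each library. The ranges of CEBPA and CEBPD overlapped too, with CEBPA higher in TF1-BAR replicate 1 and CEBPD higher in TF1-BAR replicate 2. Among all genes tested, those whose centred log2 values over the 4 libraries were closest to GFI1 were RAB32, ZBTB46 and PP7080, with root mean square differences of 0.021, 0.024 and 0.028. For CEBPD they were AC027612.3, AC112907.2 and TMEM52, at 0.031, 0.033 and 0.045. With 4 libraries this likeness is only a description.

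Around the members, 7 lists of partners and known targets held 94 genes that could be tested. Of these, 36 had an adjusted p under 0.05 from limma, against 26.9% of all genes (16.3% higher and 10.5% lower). Without TF1-BA replicate 1 the number was 4, without TF1-BA replicate 2 it was also 4, without TF1-BAR replicate 1 it was 28 and without TF1-BAR replicate 2 it was 13. Of all genes, 3.40%, 3.31%, 21.9% and 9.73% passed in these fits, in the same order.

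**Figure D4:**
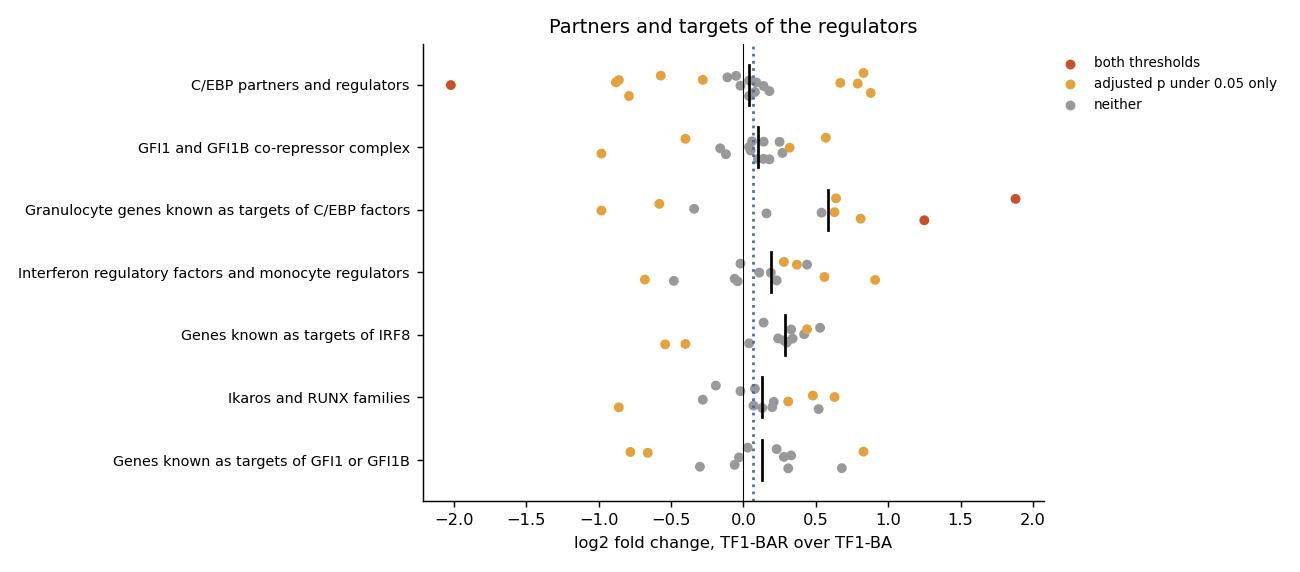
Log2 fold change in TF1-BAR over TF1-BA cells of each tested gene in the 7 lists of partners and targets, coloured by the thresholds passed, with a black line at the median of each list and a dotted line at the median of all genes. DDIT3 lies far to the left at −2.02, and CTSG and CSF1R far to the right at 1.88 and 1.25.

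Among partners and regulators of C/EBP proteins, 4 of 19 tested genes were higher, against 16.3% of all genes, and 6 were lower, against 10.5%. The median log2 fold change was 0.04. DDIT3 encodes CHOP, a C/EBP family protein induced by stress that dimerises with other C/EBP factors. It had 41.6 and 45.9 FPKM in the TF1-BA and 10.9 and 9.93 FPKM in the TF1-BAR libraries. The resistant libraries were far below the sensitive ones, and DDIT3 fell by 2.02 on the log2 scale (SE 0.0868, limma adjusted p = 0.00174). The adjusted p of DDIT3 stayed between 5.17e-08 and 0.0294 in 15 alternatives. CEBPG had 1.54 and 1.32 times the FPKM of DDIT3 in the sensitive libraries and 6.34 and 6.74 times in the resistant ones. ID2, an inhibitor of helix-loop-helix factors, fell by 0.88 on the log2 scale (adjusted p = 0.00624). JUN, an AP-1 subunit, fell by 0.86 (adjusted p = 0.00860). BATF2, another leucine zipper protein, rose by 0.88 (adjusted p = 0.0157) from a low level of 1.18 FPKM. The number of called genes in this list, 10, became 1 without TF1-BA replicate 1, 2 without TF1-BA replicate 2 and 6 without TF1-BAR replicate 2.

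Of the co-repressors of GFI1 and GFI1B, 2 of 15 genes were higher and 2 were lower, a share close to the 26.9% of all genes, and the median log2 fold change was 0.10. RCOR1, which encodes CoREST, had 78.1 and 74.0 FPKM in the TF1-BA and 38.2 and 38.1 FPKM in the TF1-BAR libraries. The replicates of each line were close, and RCOR1 fell by 0.98 on the log2 scale (SE 0.0605, limma adjusted p = 0.00344). It passed the adjusted p in all 15 alternatives, with 0.0385 as the highest value. KDM1A, which encodes LSD1, had 29.1 FPKM in the TF1-BA and 30.3 FPKM in the TF1-BAR cells and an adjusted p of 0.596, and HDAC1 and HDAC2 did not pass either. CBFA2T2 rose by 0.57 on the log2 scale (adjusted p = 0.0115), and ZNF217 fell by 0.40 (adjusted p = 0.0308). Both lie on chromosome 20, with its median of 0.39. The 4 called genes became 1 without TF1-BA replicate 1, 1 without TF1-BA replicate 2 and 2 without TF1-BAR replicate 2.

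In the list of granulocyte genes known as targets of C/EBP factors, 5 of 10 tested were higher, against 16.3% of all genes. In the same list 2 were lower, against 10.5%. The higher genes include CSF1R, a macrophage receptor gene. The lower genes, PRTN3 and PRG2, did not pass when any library was left out or without the filter. The median log2 fold change was 0.59. Of the 21 symbols of the list, 17 had a row and 10 of these passed the filter, so the median does not speak for the list. CTSG, the granule protease cathepsin G, had 11.3 and 14.9 FPKM in the TF1-BA and 49.9 and 48.3 FPKM in the TF1-BAR libraries, so that CTSG rose by 1.88 on the log2 scale (SE 0.136, limma adjusted p = 0.00409). CSF1R, the macrophage colony-stimulating factor receptor, had 0.215 and 0.326 FPKM in the sensitive and 1.34 and 1.32 FPKM in the resistant libraries, from 20 and 26 against 109 and 109 fragments. CSF1R rose by 1.25 on the log2 scale (SE 0.182, limma adjusted p = 0.0124), and its adjusted p was 0.0475 to 0.0658 when a library was left out. CSF1R passed the filter only through the TF1-BAR libraries, where it was high, so a gene at its TF1-BA level could be tested only if it differed. PRTN3, proteinase 3, fell by 0.98 on the log2 scale (adjusted p = 0.0296), from 20 and 21 fragments to 4 and 7, and its adjusted p was 0.0618 to 0.146 when a library was left out. It passed the filter only through the TF1-BA libraries, and the same limit holds for it. The log2 fold change was 0.81 for LCN2, a granule protein (adjusted p = 0.0181), and 0.64 for the interleukin-6 receptor gene IL6R (adjusted p = 0.0121). The other granule and granulocyte genes of the list were at mixed levels. LYZ, lysozyme, had 13.6 to 16.5 FPKM (adjusted p = 0.209), and MMP9, a granule protease, rose by 0.63 on the log2 scale (adjusted p = 0.0313), from 63 and 49 to 82 and 104 fragments. MMP9 lies on chromosome 20, with its median of 0.39. LTF had 1 to 5 fragments and S100A9 had 0 or 1, and ELANE and MPO were also below the filter. ELANE had 3 and 6 fragments in the sensitive and 0 in both resistant libraries, and MPO had 9 in each sensitive library against 27 and 31. The 7 called genes became 1 without TF1-BA replicate 1, TF1-BA replicate 2 or TF1-BAR replicate 2.

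Among the other interferon regulatory factors and monocyte regulators, 4 of 13 tested genes were higher, against 16.3% of all genes, and 1 was lower, against 10.5%, with a median log2 fold change of 0.19. None of the other IRF genes tested passed the adjusted p. SPI1, which encodes the monocyte and granulocyte factor PU.1, had 30.2 and 32.4 FPKM in the TF1-BA and 42.3 and 50.8 FPKM in the TF1-BAR libraries, a log2 fold change of 0.56 (adjusted p = 0.0226). EGR1, an immediate early factor, fell by 0.68 (adjusted p = 0.0307). Of the genes known as targets of IRF8, 1 of 12 was higher, against 16.3% of all genes, and 2 were lower, against 10.5%, with a median of 0.29. Limma voom on the recovered fragments gave 7 higher and 2 lower, in a fit where 40.4% of all genes had an adjusted p under 0.05. ASAH1, acid ceramidase, rose by 0.44 (adjusted p = 0.0192). CTSS, cathepsin S, fell by 0.54 (adjusted p = 0.0131), and CIITA, the activator of class II genes, fell by 0.40 (adjusted p = 0.0286). Leaving out TF1-BA replicate 1, TF1-BA replicate 2 or TF1-BAR replicate 2 took the 5 calls of the first list to 0, and leaving out TF1-BAR replicate 1 took them to 2. The 3 calls of the second list became 0, 0 and 1 without TF1-BA replicate 1, TF1-BA replicate 2 and TF1-BAR replicate 2.

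In the Ikaros and RUNX families and their partners, 3 of 13 tested genes were higher and 1 was lower, a share close to the 26.9% of all genes, with a median log2 fold change of 0.13. RUNX1 had 7.16 and 7.03 FPKM in the TF1-BA and 10.2 and 10.0 FPKM in the TF1-BAR libraries, a rise of 0.48 on the log2 scale (SE 0.0712, limma adjusted p = 0.0129). RUNX1 was therefore higher than RUNX3 in every library, and CBFB, at 18.4 to 25.2 FPKM, did not pass the test. IKZF4 rose by 0.63 (adjusted p = 0.0308). IKZF5 fell by 0.86 (adjusted p = 0.0442), on chromosome 10, where the median over all tested genes was −0.35. Of the genes known as targets of GFI1 or GFI1B, 1 of 12 was higher and 2 were lower, again close to the 26.9% of all genes, with a median of 0.13. Limma voom gave 6 higher and 2 lower, against 40.4% of all genes with an adjusted p under 0.05 in that fit. SOCS3, an inhibitor of cytokine signalling, rose by 0.83 (adjusted p = 0.0129). GATA3, also on chromosome 10, fell by 0.78 (adjusted p = 0.0253), and CSF1, which encodes the ligand of CSF1R, fell by 0.66 (adjusted p = 0.0164). The 4 calls of the first list became 0, 0, 2 and 1 and the 3 of the second 1, 0, 4 and 2 without TF1-BA replicate 1, TF1-BA replicate 2, TF1-BAR replicate 1 and TF1-BAR replicate 2.

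**Figure D5:**
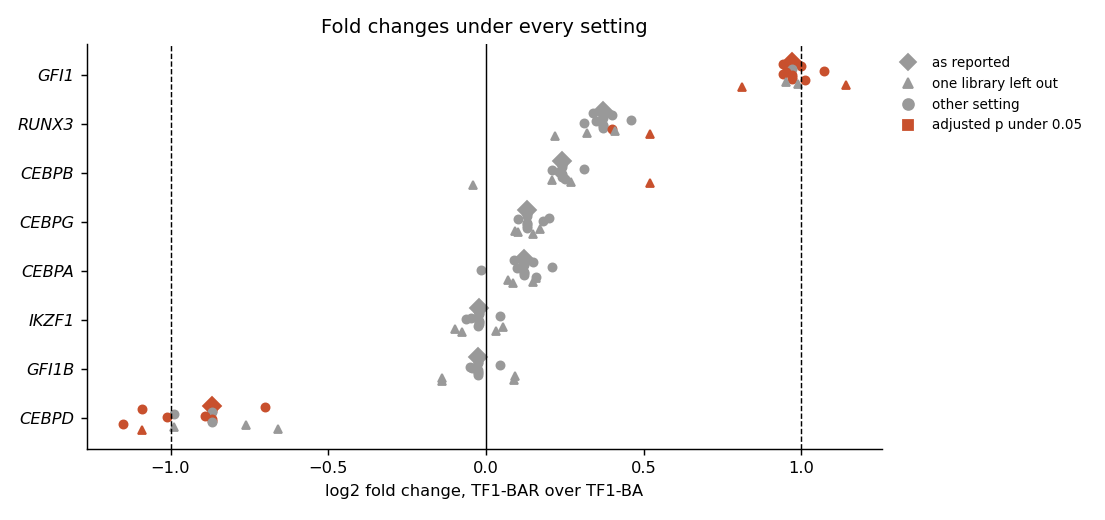
Log2 fold change of each tested regulator under the reported fit, with each library left out and under the other settings, coloured where the adjusted p was under 0.05. GFI1 stays between 0.81 and 1.14 and CEBPD between −1.15 and −0.66, while the values of CEBPB spread from −0.04 to 0.52 when single libraries are left out.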

How the data were processed

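RNA was sequenced in 2 libraries of each line, TF1-BA and TF1-BAR. Per the labels and the paper's methods, the authors mapped paired-end reads to GRCh38 with TopHat 2.0.13 and ran the Cufflinks pipeline (2.2.0). The values they deposited are FPKM without log transformation. The annotation release is not given in the sources used here. Fragments were recovered by searching for library sizes and gene lengths that make each value whole within 0.0001 fragments. This held for all 30853 genes above 0, at the GENCODE 44 exon length for 14114 and at a fitted length for 16739, and for 0 of 300 genes with wrong library sizes. The listed genes carried 98.7% of the fragments of each library. These numbers cover counting error only.

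The main fit used limma 3.58.1 in R 4.3.3 (eBayes with a trend) on log2(FPKM + 0.5), was tested on simulated data, and adjusted p-values over all 15519 genes. Groups and replicate numbers follow the sample labels. Replicates were further apart than counting noise (chi-square over its degrees of freedom 4.07 for TF1-BA and 6.99 for TF1-BAR). The members and lists were chosen with earlier results of these data known. Named list genes are those past both thresholds and the 3 with the largest change among the others with an adjusted p under 0.05, and for the 2 members with the largest change the 3 genes most like them. Some genes that this rule names are not reported here. MPO, ELANE, LTF, S100A9, LYZ, MMP9, PRG2, KDM1A, HDAC1, HDAC2, CBFB, TSC1, SPIDR and the neighbouring genes were named after their values were seen, as were the printed promoters and their motifs. List symbols were matched by gene identifier, and those without a row were not analysed here. Alternatives were a pseudocount of 1 or 0.1, a mean of at least 1 FPKM or no filter, TPM, upper quartile or quantile scaling, eBayes without the trend or robust, the replicate block, limma voom on genes with a mean of at least 10 fragments, and leaving out each library.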

Additional observations from a re-analysis of the deposited data

How the results depend on the processing

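With 2 libraries per line, every call borrows its spread from the other genes. The number of members past both thresholds, 0 as reported, was 2 with a pseudocount of 0.1, 1 after rescaling to TPM, 1 after quantile normalization and 2 with limma voom, and 0 to 1 when a library was left out. The number with an adjusted p under 0.05, 2 as reported, was 0 without the filter, 1 after rescaling to TPM, 1 with the replicate block, and 0 to 3 when a library was left out. Among all genes, 26.9% passed this limit as reported, 4.69% without the filter, 19.4% after rescaling to TPM and 25.6% with the replicate block. The block ended the call of CEBPD (adjusted p = 0.0514) and of no other member. The deviations of same-numbered libraries had a correlation of 0.0646 over 15519 genes. Such a value over all genes cannot show whether these libraries share a batch that acts on few genes. Over 15 alternatives the adjusted p was 1.76e-05 to 0.0654 for GFI1, which passed in 12, and 0.00273 to 0.156 for CEBPD, which passed in 9. Without the filter the adjusted p of GFI1 was 0.0501. Small fold changes turned sign: CEBPA was −0.017 after quantile normalization, GFI1B 0.043 and IKZF1 0.044 after rescaling to TPM. With a library left out, CEBPB ranged from −0.040 to 0.52, GFI1B from −0.14 to 0.093 and IKZF1 from −0.10 to 0.053. Over all genes, 737 passed both thresholds as reported, 487 with a pseudocount of 1, 1016 with 0.1, 1208 after rescaling to TPM, 508 without the filter, 1517 with limma voom, and 429 to 794 when a library was left out. Quantile normalization gave 359 higher and 338 lower, against 474 and 263 as reported. Of the 120 recomputed member fold changes, 100 kept their direction and their side of the limit. Of the 210 recomputed list counts, 78 moved by over 1.5 times. Apart from cases shown by fewer libraries or more genes tested, the cause was not tested.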
